A study of Mus musculus with 31 samples.

Results

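Propionate was set against acetate in the colon lining of mice on a high-fat diet (HFD), and 8 of the 31 arrays of the study carry this comparison. The arrays were chosen by their titles, 4 for propionate on HFD and 4 for acetate on HFD, and all genes named by a single symbol on the array were read. Every mouse was a male C57Bl/6J of 13 weeks that had eaten chow for 2 weeks and then a semi-synthetic diet for 2 weeks before the infusions began. In both HFD groups fat supplied 45% of dietary energy, as palm oil in place of lard. The propionate mice received 80 µL of isotonic saline with 100 mM sodium propionate into the rectum, under light sedation, once a day for 6 days. The acetate mice received the same volume of saline with 100 mM sodium acetate on the same schedule. The colon was opened and its lining scraped 4 h after the last infusion. The same infusions in mice on a low-fat diet (LFD, with 10% of its energy as fat; 4 propionate and 3 acetate arrays) and the saline HFD group (4 arrays) are set beside these values. The labels give 6 mice per group without saying which of them the arrays hold or whether an array holds 1 mouse, so p-values measure the spread between arrays.

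Acetate and propionate are short-chain fatty acids that gut bacteria release from fibre, and propionate is the longer by 1 methylene group. Colonocytes take both up through monocarboxylate and sodium-coupled transporters, sense them through the receptors Ffar2 and Ffar3, and activate them to acetyl-CoA and propionyl-CoA, the second of which enters the citric acid cycle as succinyl-CoA. Several of the transcripts described here belong to the machinery of ribosome production. Small nucleolar RNAs (snoRNAs) are short nuclear RNAs that guide the modification and cleavage of ribosomal RNA, and most mammalian ones are cut from introns of host genes, many of which encode ribosomal proteins or noncoding host RNAs of the Snhg family.

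Levels are log2 intensities, and a difference is propionate minus acetate on that scale, so a difference of 1 is a doubling. Of 18820 genes, 12795 were bright enough to test, and array medians lay between 5.14 and 5.19. Arrays of a group correlated at 0.984 to 0.994 across genes, and arrays of different groups at 0.984 to 0.993, so the groups do not separate on overall similarity. Markers of the colon lining were high on every array. The 12 tested markers of surface colonocytes averaged 11.21 to 11.38 under propionate and 11.34 to 11.58 under acetate, and the mucin Muc2 stood at 13.11 to 13.23 under propionate and 13.11 to 13.20 under acetate. Smooth muscle markers (11 tested) averaged 5.34 to 5.52 under propionate and 5.26 to 5.60 under acetate. In whole scrapings, fewer cells of a type and less RNA per cell cannot be told apart.

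No gene passed an adjusted p of 0.05 in limma's moderated test (Benjamini-Hochberg over all tested genes), and the smallest adjusted p was 0.0576. At an adjusted p under 0.1 there were 79 genes, 62 higher and 17 lower under propionate. At an unadjusted p under 0.05 there were 1686 genes, 13.2% of those tested, where 639.8 are expected if no gene differs. Of these, 626 (4.89% of genes tested) were higher and 1060 (8.28%) were lower under propionate. The median difference over all genes was -0.03. After a further quantile normalization the split turned to 876 higher and 718 lower, so the balance between directions depends on the scaling. Single arrays weighed on the counts. Without propionate array 4, acetate array 2 or propionate array 1, 147, 132 and 9 genes passed the threshold. The 1686 genes at an unadjusted p under 0.05 became 987 without propionate array 2, 1105 without propionate array 3 and 914 without acetate array 3. With array weights, which give less reliable arrays less influence, 1202 genes passed, 379 of them higher. The differences below are therefore described as sizes with their intervals, and none is called a change.

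**Figure D1:**
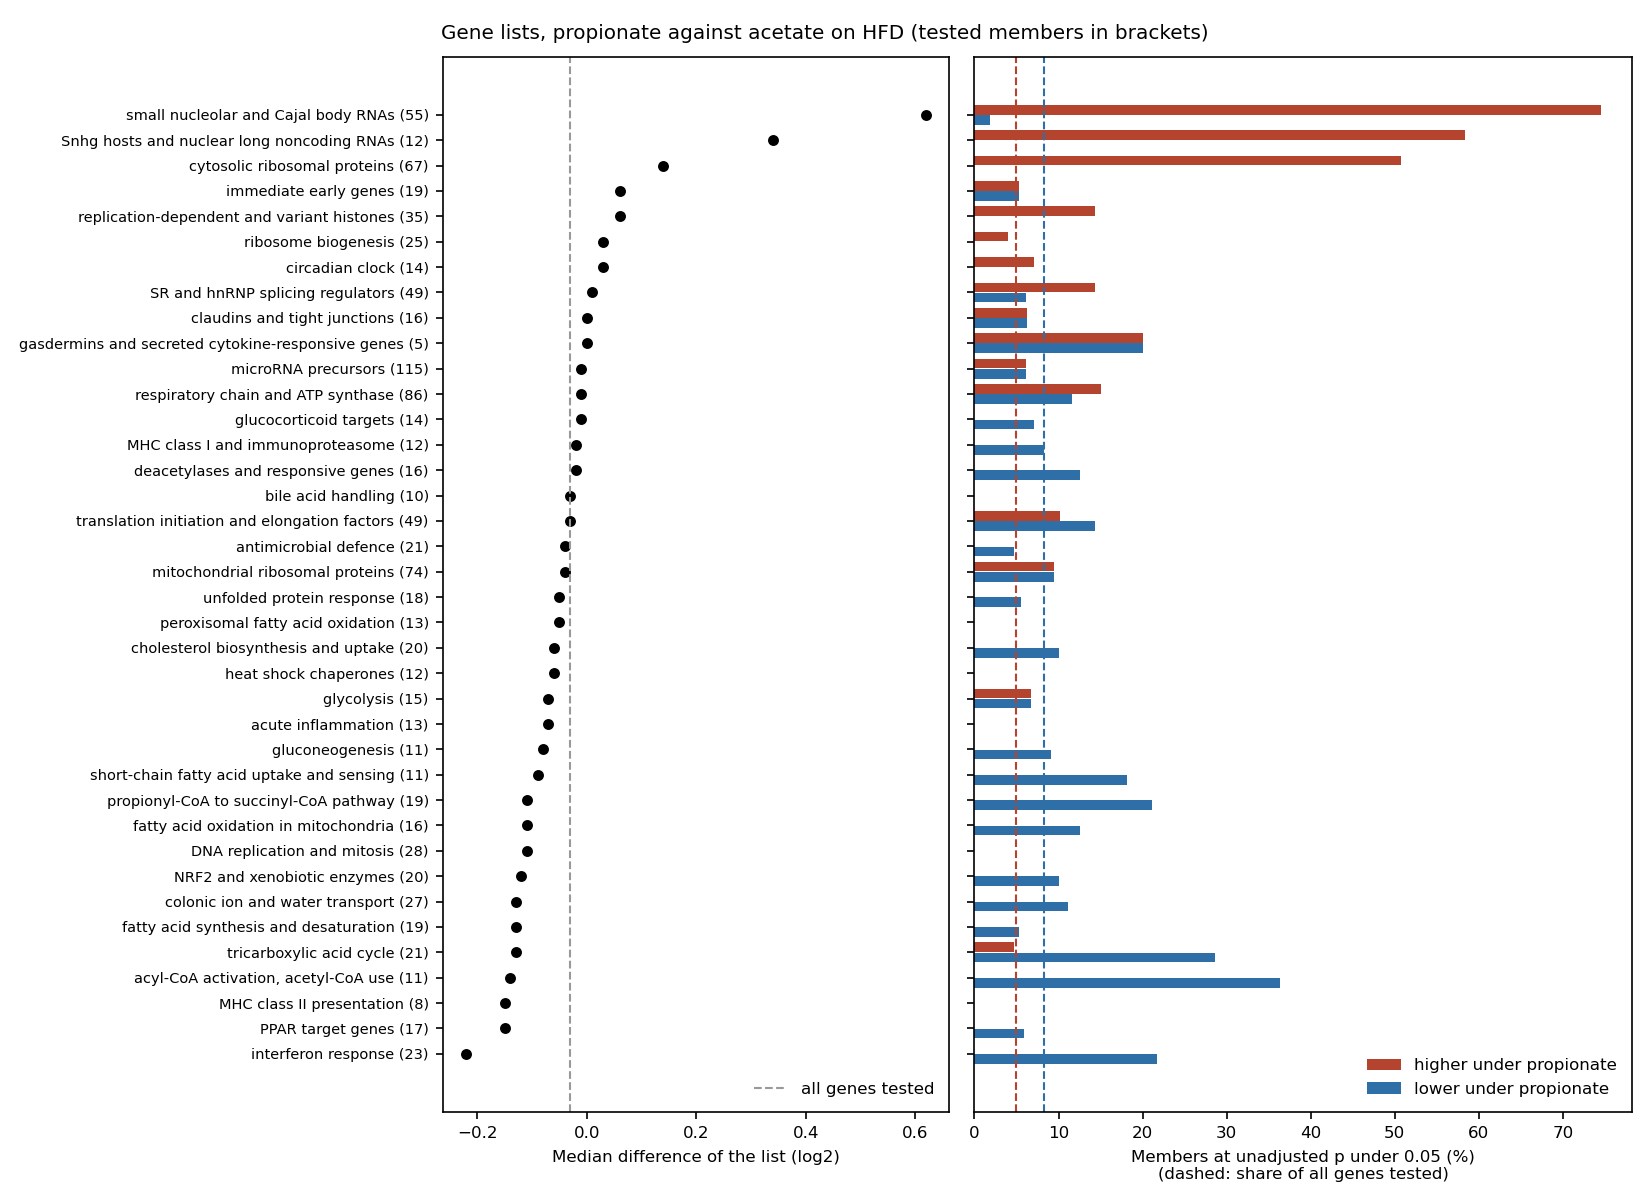
Gene lists in propionate against acetate on HFD. Left, the median difference of each list's tested members (log2), with all genes tested as a dashed line at -0.03; right, the percentage of members at an unadjusted p under 0.05 that were higher (red) or lower (blue) under propionate, with the shares of all genes tested, 4.89% and 8.28%, as dashed lines. The snoRNAs, the Snhg and nuclear noncoding RNAs and the cytosolic ribosomal proteins have the highest medians, 0.62, 0.34 and 0.14.

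SnoRNAs and the related small Cajal body RNAs held the highest levels under propionate relative to acetate. Of 59 on the array 55 were tested, 53 had a difference above 0, and 41 were higher at an unadjusted p under 0.05 against 4.89% of all genes. In 21 of them every propionate array lay above every acetate array, against 2.15% of all genes. The median difference was 0.62. The mean over the 55 was 7.78, 8.00, 7.79 and 7.40 on the propionate arrays, and 7.12, 7.37, 6.81 and 6.88 on the acetate arrays. The lowest propionate array, array 4, lay just above the highest acetate array, array 2, so the group means did not overlap. Within 1 array the snoRNAs share an RNA preparation, so they are not separate observations of the acids. The count of 41 ranged from 35 to 48 when single arrays were left out, and the median from 0.52 to 0.73 over the alternatives tried.

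Both structural classes took part. The 24 H/ACA snoRNAs, which guide the conversion of uridine to pseudouridine, had a median difference of 0.72, and all 24 lay above 0. The 28 C/D snoRNAs, which guide ribose methylation, had a median of 0.49, with 26 above 0. The 3 Cajal body RNAs, which guide the modification of spliceosomal RNAs, had a median of 0.62.

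Snora33 had the largest difference among them. It stood at 6.76, 8.71, 9.29 and 8.31 on the propionate arrays, and at 6.09, 7.24, 4.75 and 5.29 on the acetate arrays. The lowest propionate array, array 1, lay below the highest acetate array, array 2, so the groups overlapped. The means were 8.27 ± 1.08 under propionate and 5.84 ± 1.08 under acetate (SD, n = 4 each), a difference of 2.42 (SE 0.448, 5.36-fold, adjusted p = 0.0576 in limma). Snora61 stood at 8.10, 9.32, 9.21 and 8.15 on the propionate arrays, and at 7.34, 7.48, 6.05 and 6.28 on the acetate arrays. Its groups did not overlap, and the difference was 1.91 (SE 0.401, adjusted p = 0.0576). Snora74a stood at 7.87, 9.05, 9.20 and 8.49 on the propionate arrays, and at 7.32, 7.76, 6.14 and 6.24 on the acetate arrays. Its groups lay apart by a small margin between propionate array 1 and acetate array 2, with a difference of 1.79 (SE 0.347, adjusted p = 0.0576).

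Snora73a, a form of the U17 RNA that takes part in cutting the ribosomal RNA precursor, stood at 10.47, 10.42, 9.71 and 9.66 on the propionate arrays, and at 8.36, 9.08, 7.71 and 7.92 on the acetate arrays. Every propionate array lay above every acetate array, with a difference of 1.80 (SE 0.376, 3.47-fold, adjusted p = 0.0576). Snord15a stood at 6.54, 7.06, 6.93 and 6.56 on the propionate arrays, and at 5.92, 6.24, 5.72 and 5.66 on the acetate arrays. The groups did not overlap, acetate array 2 being nearest to the propionate arrays, and the difference was 0.89 (SE 0.176, adjusted p = 0.0576). Snora7a stood at 9.03, 9.23, 9.35 and 8.83 on the propionate arrays, and at 8.54, 8.78, 8.26 and 8.44 on the acetate arrays. Its groups did not overlap either, and the difference of 0.60 (SE 0.126, adjusted p = 0.0576) was much smaller than that of Snora73a.

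**Figure D2:**
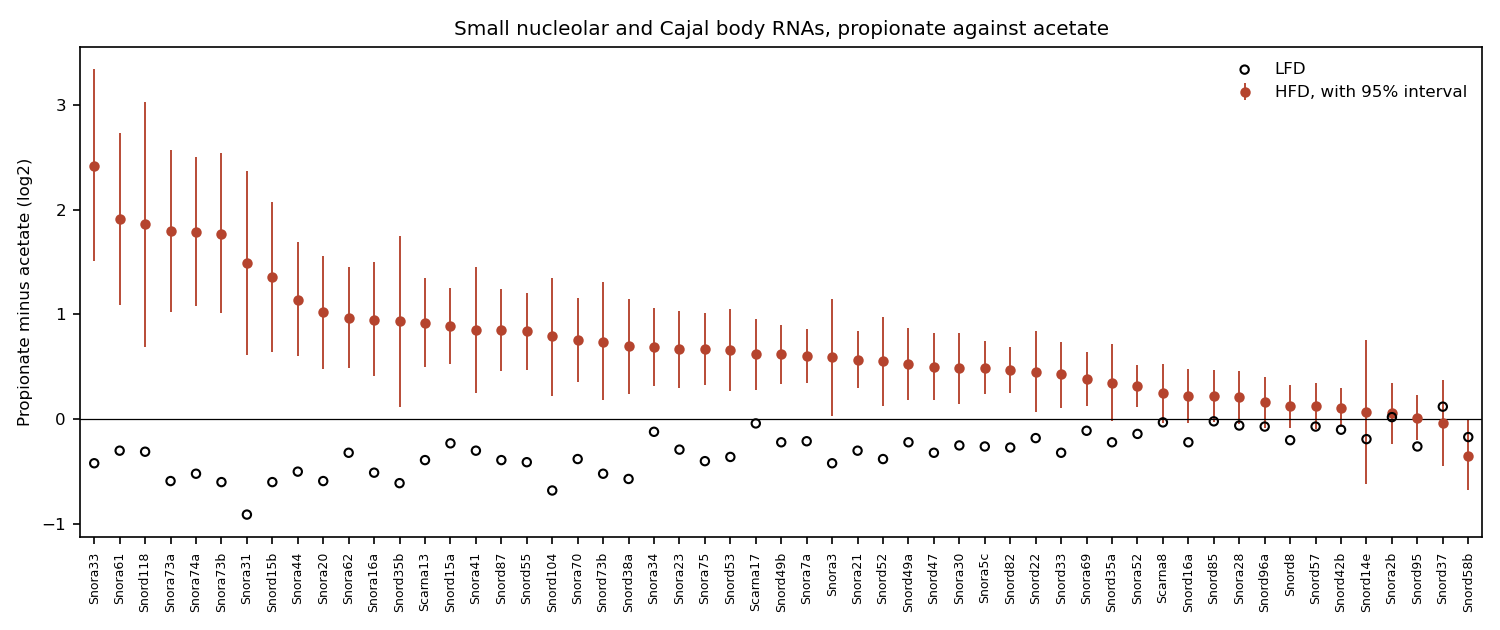
Difference between propionate and acetate (log2) for each of the 55 tested snoRNAs and Cajal body RNAs, ordered by the difference on HFD. Filled points with 95% intervals are HFD and open points are LFD; on HFD 53 points lie above 0, and on LFD 2 do.

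The snoRNAs at the other end of the list were few. Snord58b was the only one lower at an unadjusted p under 0.05, at 4.04, 4.21, 3.91 and 4.35 on the propionate arrays and 4.45, 4.07, 4.83 and 4.56 on the acetate arrays, close to the filter level of 4.32. Its groups overlapped and its difference was -0.35 (95% interval -0.68 to -0.01). Snord37 had a difference of -0.04 (95% interval -0.45 to 0.37), and Snord95 one of 0.01 (-0.20 to 0.23).

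The tested genes that contain snoRNAs differed less than those snoRNAs. The genes that contain Snora61, Snora73a, Snora74a and Snora7a were not tested. For 32 snoRNAs, 28 tested genes span them in the RefSeq gene table, with strand not compared. The median difference was 0.50 for these snoRNAs and 0.08 for the containing genes. Of the 28 genes 9 were higher and 0 lower at an unadjusted p under 0.05, where 4.89% and 8.28% of all genes were. Among the 28, 12 are cytosolic ribosomal protein genes, which are counted in their own list too. The 9 include Rps12, Rpsa, Rps3, Rpl13a, Rpl23a and Rps3a1, so this count largely repeats that of the ribosomal proteins. In 28 of the 32 pairs the snoRNA had the larger difference. Snora33 (2.42) lies within Rps12 (0.56), and Snora62 (0.97) within Rpsa (0.44). Snora31 (1.49) lies within Tpt1, a growth-related cytosolic protein gene, which differed by 0.08, and Snora20 (1.02) within Tcp1, a subunit of a cytosolic chaperonin, which differed by -0.11. The pair Snora2b (0.06) and Kansl2 (0.25) ran the other way. Probes inside an intron read the snoRNA and any unspliced host RNA alike, so these values do not separate the mature snoRNA from its precursor.

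Short structured nuclear and cytoplasmic RNAs outside the snoRNA list stood higher under propionate as well. They were grouped after their values were seen, so the group is a description. All 13 had a difference above 0, and the median was 0.58. At an unadjusted p under 0.05, 12 of them were higher, where 4.89% of all genes were. Rnu3a, the U3 RNA that directs early cleavage of the ribosomal RNA precursor, is itself a snoRNA that was not on that list. Rnu3a stood at 9.11, 9.25, 8.83 and 8.19 on the propionate arrays, and at 6.64, 7.55, 5.70 and 5.74 on the acetate arrays. Its groups did not overlap, although acetate array 2 stood well above the other acetate arrays, as it did for Snora33. The difference of 2.44 (SE 0.501, 5.42-fold, adjusted p = 0.0576) was as large as that of Snora33. Rny1, a Y RNA bound by the Ro60 protein, stood at 5.85, 5.99, 6.02 and 5.59 on the propionate arrays, and at 4.92, 5.27, 4.81 and 4.45 on the acetate arrays. Its groups lay apart, with means of 5.86 ± 0.195 under propionate and 4.86 ± 0.339 under acetate (SD, n = 4 each), a difference of 1.00 (SE 0.201, adjusted p = 0.0576). Rnu12, the U12 RNA of the minor spliceosome, differed by 1.33 (SE 0.367), the vault RNA Vaultrc5 by 1.48 (SE 0.338), Rmrp, the RNA of a ribosomal RNA processing nuclease, by 0.70 (SE 0.202), and the telomerase RNA Terc by 0.33 (SE 0.113). Rn7sk, the 7SK RNA that restrains transcription elongation, was the exception in size. It stood at 13.22 to 13.28 under propionate and 13.13 to 13.23 under acetate, and differed by 0.08 (95% interval -0.01 to 0.16).

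Noncoding RNAs on the list of Snhg hosts and nuclear RNAs were also higher. The short Rmrp is on this list too, so it is counted both here and among the structured RNAs above. All 12 tested members had a difference above 0, with a median of 0.34. At an unadjusted p under 0.05, 7 were higher, where 4.89% of all genes were. Malat1, an abundant RNA of nuclear speckles, stood at 11.57, 11.69, 11.69 and 11.68 on the propionate arrays, and at 11.11, 11.27, 11.12 and 11.16 on the acetate arrays. The arrays of each group were close together and the groups far apart, with a difference of 0.49 (SE 0.102, adjusted p = 0.0576). Snhg17, a host RNA for snoRNAs, stood at 8.60, 8.85, 8.48 and 7.99 on the propionate arrays, and at 7.69, 7.95, 7.12 and 7.15 on the acetate arrays. Propionate array 4 lay just above acetate array 2, the difference was 1.00 (SE 0.220, adjusted p = 0.0643), and its other probe sets differed by 0.49 and 1.05. Gas5, which hosts several snoRNAs and is degraded when translated, differed by 0.08 (95% interval -0.18 to 0.34). The imprinted RNA Meg3 differed by 0.10 with an interval from -0.71 to 0.90, so nothing can be read of its direction. Among 115 tested microRNA precursors 7 were higher and 7 lower at an unadjusted p under 0.05, near the 4.89% and 8.28% of all genes. Their median difference was -0.01.

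**Figure D3:**
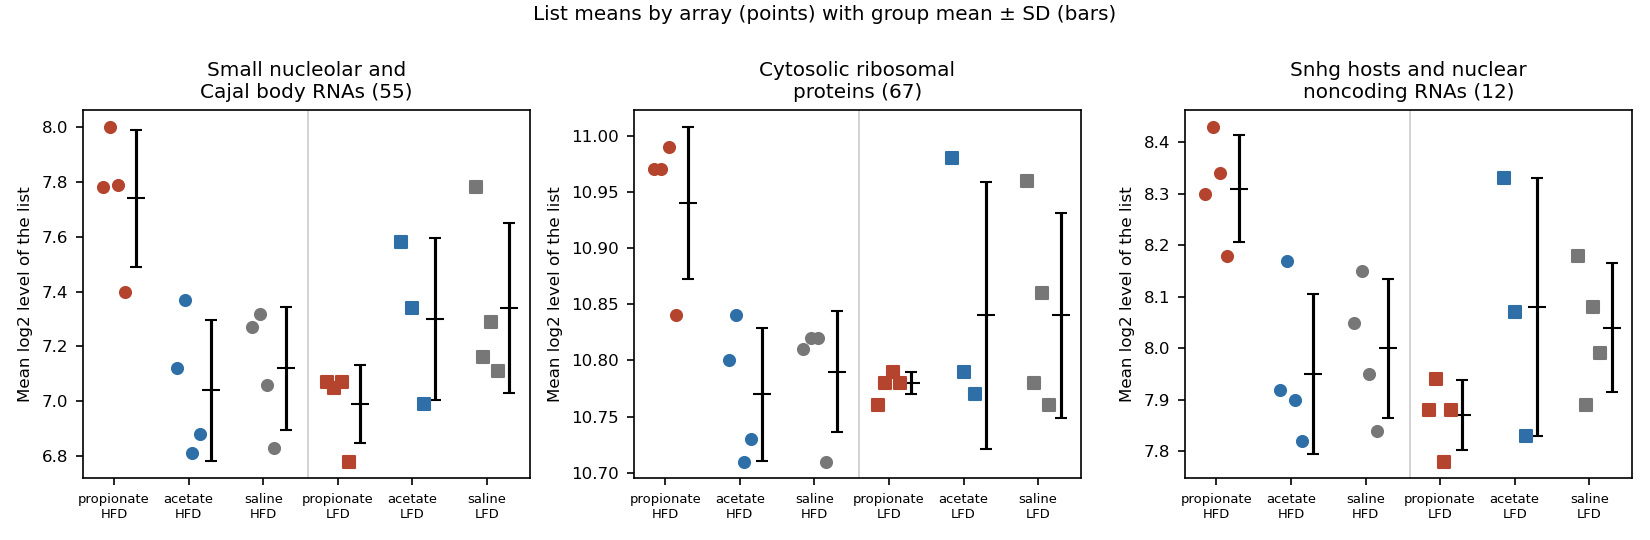
Mean log2 level of 3 lists on each array of the propionate, acetate and saline groups on HFD (circles) and LFD (squares), with group mean ± SD beside the points. On HFD the propionate arrays lie at 7.40 to 8.00 for the snoRNAs and the acetate arrays at 6.81 to 7.37; acetate LFD array 1 (7.58) and saline LFD array 1 (7.78) lie inside the propionate range.

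Cytosolic ribosomal proteins, the protein part of the ribosome, were higher by small amounts. Of 67 tested, 58 had a difference above 0, and the median was 0.14. At an unadjusted p under 0.05, 34 were higher and 0 lower, where 4.89% and 8.28% of all genes were. Their mean was 10.97, 10.97, 10.99 and 10.84 on the propionate arrays, and 10.80, 10.84, 10.71 and 10.73 on the acetate arrays. Propionate array 4 and acetate array 2, the closest pair for the snoRNAs, were the closest pair here too and were equal to 2 decimals. The count of 34 ranged from 24 to 38 when single arrays were left out.

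Rps28, a small protein of the small subunit, stood at 11.16, 11.59, 11.53 and 11.19 on the propionate arrays, and at 10.76, 11.05, 10.53 and 10.61 on the acetate arrays. Its groups did not overlap, and the difference was 0.63 (SE 0.129, adjusted p = 0.0576). Rps27 stood at 9.61, 9.82, 9.86 and 9.65 on the propionate arrays, and at 9.20, 9.57, 8.93 and 9.13 on the acetate arrays. Propionate array 1 lay just above acetate array 2, and the difference was 0.53 (SE 0.112, adjusted p = 0.0576). Rpl24 (0.71, SE 0.161), Rps12 (0.56, SE 0.127), Rps29 (0.54, 95% interval 0.28 to 0.81) and Rpsa (0.44, 95% interval 0.23 to 0.65) followed. At the low end, Rpl17 differed by -0.03 (95% interval -0.12 to 0.05). Of the 67 genes 55 have several probe sets, many on near-identical copies, so which copy the signal comes from is uncertain; the 7 probe sets of Rps28 differed by 0.63 to 0.69.

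Many ribosomal protein mRNAs begin with a run of pyrimidines, the element through which growth signalling controls their translation. The sequence around the start is shown for 4 of these genes, chosen to span long and short runs, as RefSeq gives it on GRCm38.p6: 15 bases before the start to 25 after it, with the longest run of C and T found from 10 bases before to 15 after the start in capitals, followed to its full length beyond those limits.
Rps27, chr3:90213624-90213663, minus strand: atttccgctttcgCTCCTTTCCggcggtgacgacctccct
Rpl13a, chr7:45128721-45128760, minus strand: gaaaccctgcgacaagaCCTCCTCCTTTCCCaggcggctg
Rpl19, chr11:98026909-98026948, plus strand: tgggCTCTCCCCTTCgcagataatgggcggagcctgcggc
Rps28, chr17:33824538-33824577, minus strand: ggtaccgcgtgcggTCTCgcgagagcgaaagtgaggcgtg
The run was 9 bases in Rps27, 14 in Rpl13a, 11 in Rpl19 and 4 in Rps28, and the differences were 0.53, 0.25, 0.21 and 0.63. By this annotation the run of Rpl19 ends on the last base before the start, so it lies outside the mRNA. Runs before and after the start were counted alike. A run with at least 8 bases of C or T inside those limits, on the gene's own strand, was found in 22 of 54 ribosomal protein genes with a sequence (40.7%), against 11.8% of all 10147 tested genes with one. A longer run that has fewer bases inside the limits, such as the run of 11 in Rps12, is not counted. The median difference was 0.14 in the ribosomal protein genes with such a run and 0.14 in those without. Annotated starts and fixed limits decide which genes count, so this split does not separate mRNAs that carry the element from mRNAs that lack it.

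The rest of the translation machinery did not share the raised median. Among all genes, 4.89% were higher and 8.28% lower at an unadjusted p under 0.05. Mitochondrial ribosomal proteins (74 tested) had a median of -0.04, with 7 higher and 7 lower at that level. Translation factors (49) had a median of -0.03, with 5 higher and 7 lower. In both lists the share higher was above that of all genes. Eef1g, a subunit of the elongation factor that reloads eEF1A with GTP, stood at 10.04 to 10.13 under propionate and 9.72 to 9.91 under acetate, a difference of 0.30 (SE 0.0681, adjusted p = 0.0759). Eif4a1, the helicase that unwinds mRNA leaders, differed by -0.30 (SE 0.0938, adjusted p = 0.163). Ribosome biogenesis factors (25) had a median of 0.03 and 1 member at an unadjusted p under 0.05, the nucleolar protein Ncl (0.23, SE 0.0974). Dkc1, the pseudouridine synthase that works with H/ACA snoRNAs, differed by -0.25 (95% interval -0.53 to 0.03), and its partners Nhp2 and Gar1 by 0.22 (-0.01 to 0.46) and 0.21 (-0.05 to 0.46). Splicing regulators (49) had a median of 0.01, with 7 higher and 3 lower, and histones (35) a median of 0.06, with 5 higher and 0 lower. Their shares higher were also above that of all genes.

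Of the 10 genes with the smallest p on the higher side, 6 are noncoding RNAs or ribosomal proteins already described and 4 encode other proteins. Members of the snoRNA list and microRNA precursors were kept to their own lists. Taf11, a subunit of the general transcription factor TFIID, stood at 6.07, 5.91, 6.02 and 5.84 on the propionate arrays, and at 5.72, 5.62, 5.44 and 5.61 on the acetate arrays. All propionate arrays lay above all acetate arrays, with a difference of 0.36 (SE 0.071, adjusted p = 0.0576). Stx4a, a syntaxin of the plasma membrane that takes part in vesicle fusion, stood at 7.31 to 7.55 under propionate and 6.85 to 7.13 under acetate (difference 0.41, SE 0.0901, adjusted p = 0.0643). Ccnl2, a cyclin associated with splicing, stood at 8.47 to 8.59 under propionate and 8.11 to 8.29 under acetate (difference 0.31, SE 0.0675, adjusted p = 0.0643). Its second, dim probe set differed by 0.07, so the probe sets disagree in size. Rdm1, an RNA recognition motif protein related to Rad52, stood at 6.27 to 6.45 under propionate and 5.86 to 6.19 under acetate (difference 0.42, SE 0.0921, adjusted p = 0.0643).

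**Figure D4:**
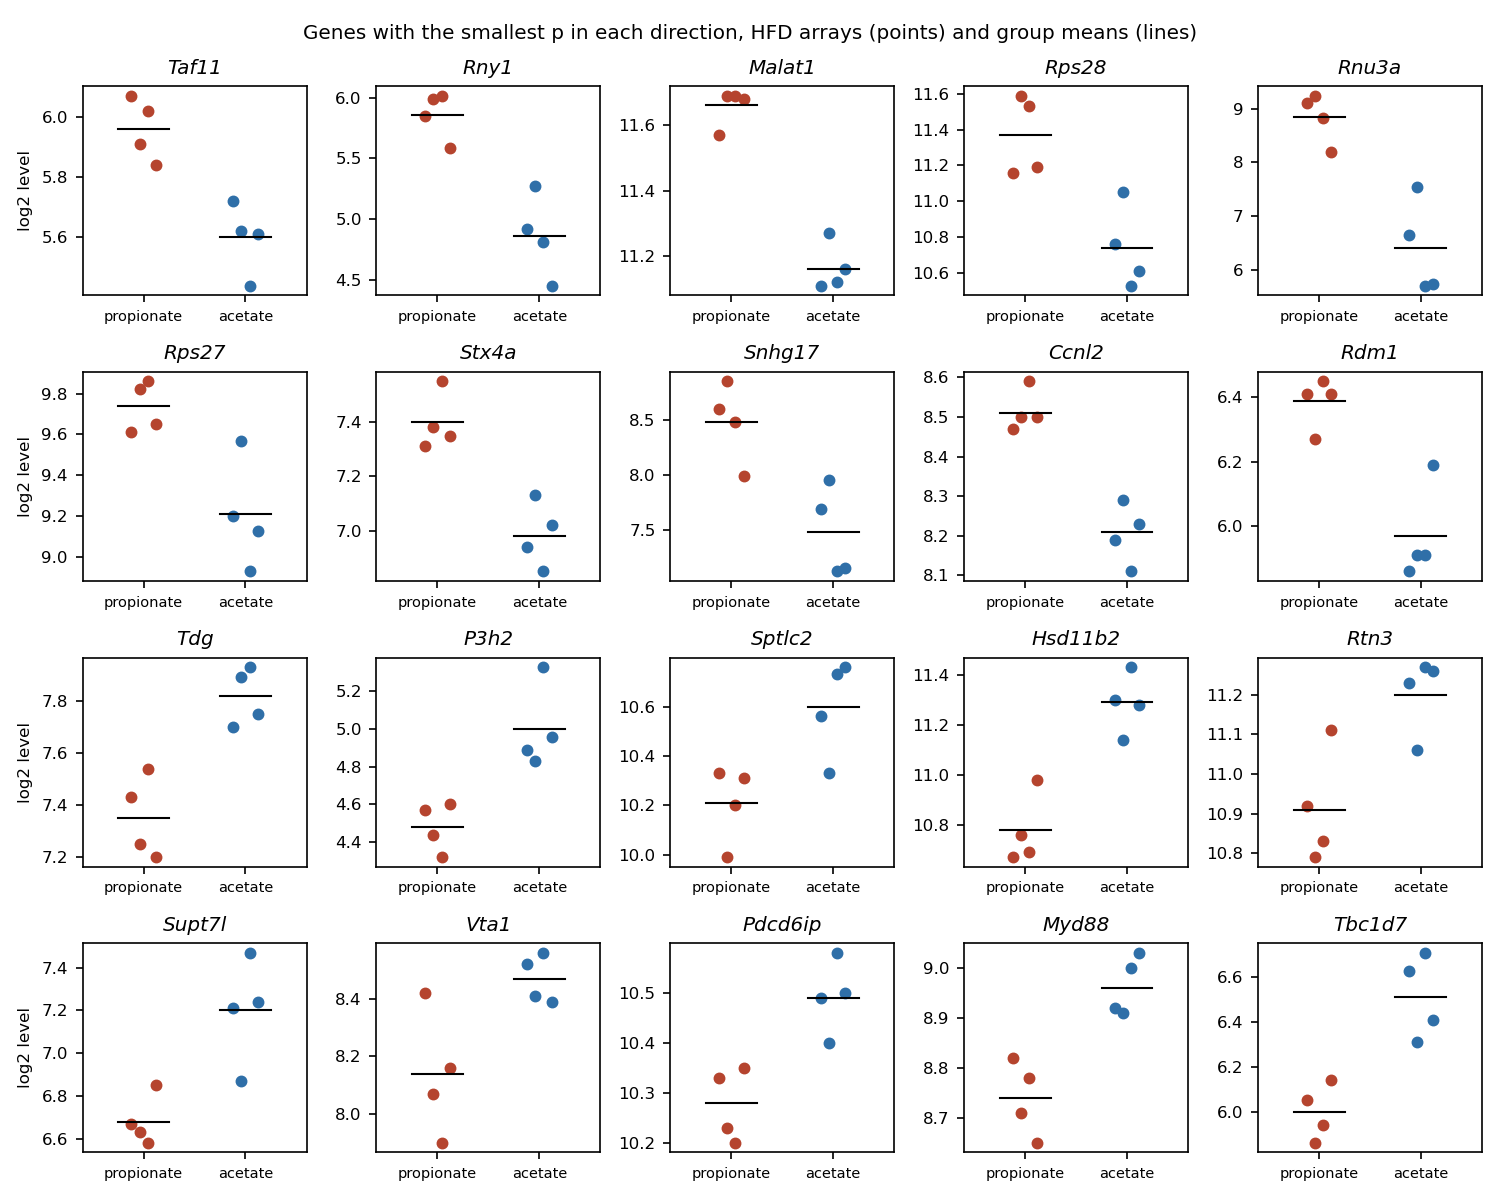
Log2 levels on each HFD array (points) with group means (lines) for the 10 genes with the smallest p on the higher side (upper 2 rows) and on the lower side (lower 2 rows). Each panel has its own axis; the groups overlap in Rtn3 and Vta1 and are apart in the others, by the unrounded values.

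On the lower side the 10 genes came from varied functions. Tdg, a thymine DNA glycosylase that also removes oxidised methylcytosines, stood at 7.43, 7.25, 7.54 and 7.20 on the propionate arrays, and at 7.70, 7.89, 7.93 and 7.75 on the acetate arrays. Its groups did not overlap, the difference was -0.46 (SE 0.108, adjusted p = 0.0789), and its 4 probe sets differed by -0.46 to -0.37. Hsd11b2, which inactivates glucocorticoid and so lets aldosterone act on the distal colon, stood at 10.67, 10.76, 10.69 and 10.98 on the propionate arrays, and at 11.30, 11.14, 11.43 and 11.28 on the acetate arrays. Every propionate array lay below every acetate array, and the difference was -0.51 (SE 0.124, adjusted p = 0.0816). Sptlc2, a subunit of the first enzyme of sphingolipid synthesis, stood at 10.33, 9.99, 10.20 and 10.31 on the propionate arrays, and at 10.56, 10.33, 10.73 and 10.76 on the acetate arrays. The highest propionate array, array 1, and the lowest acetate array, array 2, were equal to 2 decimals, and the difference was -0.39 (SE 0.0939, adjusted p = 0.0816).

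Both Pdcd6ip and Vta1 act in membrane sorting at the endosome. Pdcd6ip (the ALIX protein) stood at 10.20 to 10.35 under propionate and 10.40 to 10.58 under acetate (difference -0.22, SE 0.0543, adjusted p = 0.0875). Vta1, a cofactor of the ATPase that recycles the ESCRT machinery, stood at 7.90 to 8.42 under propionate and 8.39 to 8.56 under acetate (difference -0.33, SE 0.0814, adjusted p = 0.0816), with overlap at propionate array 1. Myd88, the adaptor of Toll-like receptors, stood at 8.65 to 8.82 under propionate and 8.91 to 9.03 under acetate (difference -0.22, SE 0.0563, adjusted p = 0.0935). Among the remaining genes, Supt7l, a subunit of the STAGA coactivator, differed by -0.52 (SE 0.125), Tbc1d7, a subunit of the TSC complex that restrains mTORC1, by -0.52 (SE 0.132), and Rtn3, a reticulon of the endoplasmic reticulum, by -0.29 (SE 0.0701). P3h2, a collagen prolyl hydroxylase, differed by -0.52 (SE 0.123) at levels of 4.32 to 5.33, near the filter level, and its second probe set differed by 0.05.

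Genes that take up or sense the infused acids had small differences, most of them below 0. Of 11 tested, 2 had a difference above 0, and the median was -0.09. At an unadjusted p under 0.05, 0 were higher and 2 lower, where 8.28% of all genes were lower. Slc5a8, the sodium-coupled transporter of both acids, stood at 11.19, 10.94, 10.77 and 10.85 on the propionate arrays, and at 11.20, 10.95, 11.16 and 11.24 on the acetate arrays. The groups overlapped, since propionate array 1 stood with the higher acetate arrays, and the difference was -0.20 (SE 0.0818, adjusted p = 0.303). The proton-linked transporter Slc16a1 differed by -0.14 (95% interval -0.39 to 0.11), the receptor Ffar2 by -0.13 (-0.44 to 0.19) and the receptor Ffar3, dim on every array, by 0.06 (-0.14 to 0.26). These intervals leave room for differences of either sign, so the acids were not shown to act alike on these genes. The efflux pump Abcg2 was the other member at an unadjusted p under 0.05, with -0.33 (95% interval -0.58 to -0.08).

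Enzymes that activate short-chain acids and use acetyl-CoA stood slightly lower under propionate, with 4 of 11 lower and 0 higher at an unadjusted p under 0.05 against 8.28% lower among all genes, and a median of -0.14. Acss1, the mitochondrial acetyl-CoA synthetase, stood at 8.63, 8.59, 8.81 and 9.06 on the propionate arrays, and at 8.98, 8.93, 9.27 and 9.25 on the acetate arrays. Propionate array 4 lay among the acetate arrays, and the difference was -0.34 (SE 0.120, adjusted p = 0.238). Its cytosolic counterpart Acss2 differed by -0.14 (95% interval -0.35 to 0.08). The beta-oxidation hydratase Echs1 differed by -0.28 (SE 0.104, adjusted p = 0.252), with propionate array 4 among the acetate arrays. On LFD all 11 of these genes stood above 0, with a median of 0.10, and 4 of 11 were below 0 at an unadjusted p under 0.05 in the difference between diets, where 8.75% of all genes were.

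The pathway that carries propionyl-CoA to succinyl-CoA is used by propionate and not by acetate. The 19 tested genes listed with it also include genes of valine breakdown, vitamin supply and succinyl-CoA use. They had a median of -0.11, with 0 higher and 4 lower (21.1%) at an unadjusted p under 0.05, where 8.28% of all genes were lower. Of these 4 only Mcee is an enzyme of the pathway itself, so the share is not a result about that route alone. The median was -0.03 without propionate array 3 and ranged from -0.15 to -0.03 when single arrays were left out. Its carboxylase subunits Pcca and Pccb differed by -0.07 (95% interval -0.25 to 0.12) and 0.14 (-0.02 to 0.29), and the mutase Mmut by -0.14 (-0.31 to 0.03). The epimerase Mcee stood at 10.22 to 10.60 under propionate and 10.50 to 10.75 under acetate, a difference of -0.22 (95% interval -0.39 to -0.05). Tcn2, a carrier of the vitamin B12 that the mutase needs, differed by -0.29 (-0.49 to -0.08), and Hibch, a valine breakdown enzyme, by -0.40 (-0.66 to -0.14). Suclg2, a subunit of succinyl-CoA ligase, differed by -0.30 (SE 0.0997). Citric acid cycle genes (21 tested) had a median of -0.13, with 1 higher and 6 lower (28.6%) at an unadjusted p under 0.05. The isocitrate dehydrogenase subunit Idh3g stood at 10.75 to 10.86 under propionate and 10.94 to 11.09 under acetate, without overlap (difference -0.20, SE 0.0564, adjusted p = 0.121), and Sdhb, a subunit of succinate dehydrogenase, differed by 0.22 (SE 0.0778).

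Respiratory chain genes went both ways. Of 86 tested, 13 were higher and 10 lower at an unadjusted p under 0.05, and the median was -0.01. Among all genes 4.89% were higher and 8.28% lower, so the higher side was the further above its share. Those with the smallest p were small subunits on the higher side. Ndufb7 of complex I stood at 8.94, 9.14, 8.92 and 8.72 on the propionate arrays, and at 8.45, 8.65, 8.41 and 8.41 on the acetate arrays. Its groups did not overlap and the difference was 0.45 (SE 0.105, adjusted p = 0.0789). Ndufa7 of the same complex differed by 0.35 (SE 0.0895), and Atp5l and Atp5k of the ATP synthase by 0.52 (SE 0.136) and 0.51 (SE 0.150).

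Among genes reported to respond when histone deacetylases are inhibited, an action known of short-chain acids in cultured cells, Cdkn1a had the smallest p. This gene, which encodes the cell cycle inhibitor p21, stood at 10.51, 10.45, 10.66 and 10.99 on the propionate arrays, and at 11.09, 11.03, 11.27 and 11.15 on the acetate arrays. Every propionate array lay below every acetate array, and the difference was -0.48 (SE 0.125, 0.716-fold, adjusted p = 0.101). The other responsive genes on the list did not share this difference: Gadd45b, Hspa2 and Mt1 differed by 0.11, 0.18 and 0.18, and Klf4 and Mt2 by -0.02 and -0.12. The 16 tested deacetylases and responsive genes had a median of -0.02. At an unadjusted p under 0.05, 0 were higher and 2 lower, where 8.28% of all genes were lower. The second of these was Hdac3 (-0.12, SE 0.0547).

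Lipid gene lists held members lower at an unadjusted p under 0.05 about as often as all genes, of which 8.28% were lower, so the counts are no result about lipid genes. Fatty acid synthesis and desaturation (19 tested) had a median of -0.13 with 0 higher and 1 lower, and mitochondrial fatty acid oxidation (16) a median of -0.11 with 0 higher and 2 lower. Peroxisomal fatty acid oxidation (13) had a median of -0.05, with 6 members above 0 and 0 at an unadjusted p under 0.05 in either direction; Acaa1a and Acaa1b, its thiolases, differed by 0.20 (95% interval -0.05 to 0.46) and 0.28 (-0.18 to 0.73). PPAR targets (17), which respond to fatty acids, had a median of -0.15 with 0 higher and 1 lower. That gene was Acot2, a mitochondrial thioesterase, at 6.71, 6.84, 7.25 and 7.95 on the propionate arrays and 8.20, 7.38, 8.42 and 7.99 on the acetate arrays. The groups overlapped and the difference was -0.81 (SE 0.295, adjusted p = 0.25). Other PPAR targets spread widely. Pdk4, which turns off pyruvate oxidation, stood at 7.46 to 8.97 under propionate and 7.78 to 8.92 under acetate (difference -0.34, 95% interval -1.14 to 0.46), and the lipoprotein lipase inhibitor Angptl4 differed by -0.24 (-0.79 to 0.30). Cholesterol synthesis (20) had a median of -0.06, which turned to 0.01 without acetate array 3. Of its members 0 were higher and 2 lower at an unadjusted p under 0.05. Fdft1, the squalene synthase, stood at 9.30, 9.27, 9.25 and 9.52 on the propionate arrays and 9.78, 9.62, 10.30 and 9.70 on the acetate arrays, apart but with acetate array 3 well above the rest (difference -0.52, SE 0.211, adjusted p = 0.292).

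The interferon response list had a median of -0.22, which was -0.12 without acetate array 1 and -0.33 without acetate array 4. Of 23 tested, 2 had a difference above 0, and 0 were higher and 5 lower (21.7%) at an unadjusted p under 0.05, where 8.28% of all genes were lower. Usp18, which removes ISG15 and damps interferon signalling, stood at 5.0, 4.91, 4.52 and 4.95 on the propionate arrays, and at 5.68, 5.50, 5.44 and 5.35 on the acetate arrays. Every propionate array lay below every acetate array, and the difference was -0.65 (SE 0.194, adjusted p = 0.147). The antiviral genes Oasl2, Ifit1 and Rsad2 differed by -0.56 (SE 0.218), -0.49 (SE 0.208) and -0.48 (SE 0.167). The list mean was 6.49, 6.27, 6.13 and 6.29 on the propionate arrays, and 6.79, 6.64, 6.39 and 6.34 on the acetate arrays, so the groups overlapped. The lectin Reg3g, an antibacterial protein of the epithelium, stood at 9.27, 7.61, 7.31 and 7.92 on the propionate arrays and 7.32, 9.87, 10.06 and 9.04 on the acetate arrays, each group holding 1 array at the other's level (difference -1.05, 95% interval -2.40 to 0.30).

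Ion and water transport genes (27 tested) had a median of -0.13, with 0 higher and 3 lower (11.1%) at an unadjusted p under 0.05, near the 8.28% of all genes that were lower. Beside Hsd11b2, these were the potassium channel Kcnma1 (-0.28, SE 0.0797) and Scnn1a (-0.40, SE 0.179), a subunit of the epithelial sodium channel. Scnn1a stood at 9.59 to 9.82 under propionate and 9.85 to 10.36 under acetate, without overlap. Markers of the distal colon (9 tested, among them the other sodium channel subunits) had a median of -0.11, with 3 above 0 and 0 at an unadjusted p under 0.05, and the median ranged from -0.27 to -0.01 when single arrays were left out. Their mean was 7.37, 7.82, 7.49 and 7.03 on the propionate arrays, and 7.86, 7.36, 7.57 and 7.32 on the acetate arrays, with overlap. Markers of the proximal colon (9) had a median of 0.02, ranging from -0.01 to 0.11, with 5 above 0 and 0 at an unadjusted p under 0.05. The part of the sampled colon region in the values of Hsd11b2, Kcnma1 and Scnn1a was not tested. Hormone genes of enteroendocrine cells that sense the acids did not reach an unadjusted p of 0.05, with Gcg at -0.13 (95% interval -0.42 to 0.15) and Pyy at 0.15 (-0.06 to 0.36). Muc2 differed by 0.02 (-0.07 to 0.10), and Pck1, an enzyme of glucose production, by 0.00 (-0.31 to 0.31).

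Markers of other cell types were followed across the same arrays. All 9 tested adipocyte markers stood at or below 0, with a median of -0.19 and 0 at an unadjusted p under 0.05; their mean was 6.18 to 6.47 under propionate and 6.17 to 7.17 under acetate, with acetate array 1 the highest. All 9 tuft cell markers stood above 0, with a median of 0.16. At an unadjusted p under 0.05, 1 was higher, where 4.89% of all genes were. The tuft cell mean was 6.29 to 6.61 under propionate and 6.13 to 6.43 under acetate. All 6 tested markers of enteric neurons and glia stood at or below 0, with a median of -0.14. At an unadjusted p under 0.05, 2 were lower, where 8.28% of all genes were. The medians were 0.06 for smooth muscle, -0.14 for fibroblasts, 0.03 for B and plasma cells, -0.09 for T cells and -0.06 for macrophages. When single arrays were left out they ranged from 0.02 to 0.13 for smooth muscle, -0.24 to -0.05 for fibroblasts and -0.13 to 0 for T cells. The medians for surface colonocytes ranged from -0.11 to -0.04 in the same way, beside a median of -0.03 over all genes. Those for B and plasma cells ranged from -0.13 (without propionate array 1) to 0.18 (without acetate array 4), and those for macrophages from -0.23 (without propionate array 1) to 0.12 (without propionate array 2), so for both the sign depends on single arrays. The part of these cells in the differences above was not tested.

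Short genes were higher under propionate more often than long ones. Of protein-coding genes without ribosomal proteins, 398 span up to 2000 bases in the RefSeq table, and 8.04% of these were higher and 3.52% lower at an unadjusted p under 0.05. Of the 1562 that span over 100000 bases, 2.37% were higher and 6.66% lower. Between 20000 and 50000 bases (3355 genes) 3.49% were higher and 10.7% lower. The medians moved less, at 0.02 for the shortest genes and -0.03 for the longest. Among all tested genes 4.89% were higher and 8.28% lower. The shares by span were read in the main fit only, and the balance between directions depends on the scaling.

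**Figure D5:**
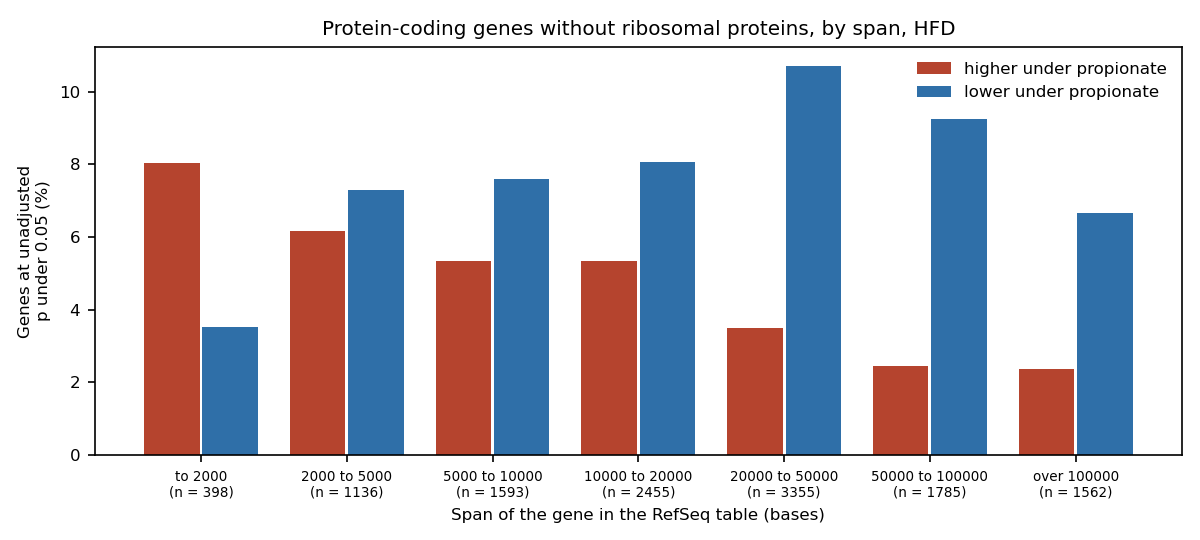
Percentage of protein-coding genes, ribosomal proteins left out, at an unadjusted p under 0.05 in propionate against acetate on HFD, by the span of the gene. Red bars (higher under propionate) run down to 2.37% in the longest genes, beside 8.04% in the shortest; blue bars (lower) are 3.52% in the shortest and 10.7% at 20000 to 50000 bases.

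On LFD the same pair of acids gave no gene past the threshold (smallest adjusted p 1.0 in limma) and 473 genes (3.7%) with an unadjusted p below 0.05, 277 higher (2.16%) and 196 lower (1.53%), where 639.8 in all are expected if no gene differs. That count was 243 without acetate LFD array 1 and 1132 without acetate LFD array 3. The snoRNAs there had a median of -0.30, with 2 of 55 above 0 and 0 higher and 8 lower at an unadjusted p under 0.05. Their mean was 7.07, 7.05, 7.07 and 6.78 on the propionate LFD arrays, and 7.58, 7.34 and 6.99 on the acetate LFD arrays. Acetate array 1 was the highest of these and the groups overlapped. Spread of this size also occurred within saline, whose LFD arrays stood at 7.78, 7.16, 7.29 and 7.11; the labels report RNA integrity only as a lower limit for all samples, so its part in the snoRNA differences was not tested. The Snhg and nuclear RNAs had a median of -0.21 on LFD and the cytosolic ribosomal proteins one of -0.06.

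The difference between the diets was tested directly, as propionate minus acetate on HFD less the same on LFD. No gene passed an adjusted p of 0.05 in limma, the smallest being 0.104, and 1703 genes (13.3%) were at an unadjusted p under 0.05. Of the snoRNAs 44 of 55 were above 0 at that level and 0 below, with a median of 0.86, against 4.56% of all genes above 0 and 8.75% below. Rnu3a differed between the diets by 3.38 (adjusted p = 0.104) and Malat1 by 0.72 (adjusted p = 0.104). Ribosomal proteins had a median of 0.17, with 35 of 67 above 0 and 0 below. Cell division genes had 0 above and 10 below of 28, with a median of -0.37; their propionate minus acetate median was -0.11 on HFD and 0.33 on LFD. Without acetate LFD array 3, 140 genes passed the threshold for the difference between diets, and without acetate HFD array 2 or propionate HFD array 4, 28 and 22 did. The count of 1703 was 916 without acetate LFD array 1.

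Saline on HFD was set beside each acid. Both comparisons with saline use the same 4 saline arrays, and each shares its acid arrays with the comparison above, so the values are given side by side only. The snoRNAs had a median of 0.56 for propionate minus saline and -0.03 for acetate minus saline, the Snhg and nuclear RNAs 0.33 and -0.02, and the ribosomal proteins 0.12 and -0.01. The saline arrays had snoRNA means of 7.27, 7.32, 7.06 and 6.83, at the level of the acetate arrays. Some single genes had means on both sides of saline: Rny1 differed by 0.50 for propionate and -0.50 for acetate, and Malat1 by 0.19 and -0.30. Cdkn1a stood at -0.41 for propionate and 0.07 for acetate, and Usp18 at -0.09 and 0.56. Each of these groups has 4 arrays, so the SE given above for each gene applies here too. No gene passed the threshold in either comparison, with a smallest adjusted p of 0.236 for propionate and 0.131 for acetate in limma. At an unadjusted p under 0.05 there were 1497 genes (11.7%) for propionate, 3.81% of genes higher and 7.89% lower, and 321 genes (2.51%) for acetate, 1.26% higher and 1.25% lower. The count for acetate lies below the 639.8 expected if no gene differs.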

How the data were processed

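Single-colour whole-transcript arrays of colon scrapings were read from the deposited values, which are log2 expression made by the authors with RMA, per the submitters' processing notes; the genome build is not given in the sources used here. Of 35556 probe sets, 21218 carry 1 gene symbol, 1881 several and 12457 none in the platform annotation. Probe sets with 1 symbol were used, the brightest for each of the 1386 genes with several, and a gene was tested where at least 3 arrays reached an intensity of 20 (log2 4.32). A model with 1 mean per group was fitted over all 31 arrays with limma 3.58.1 in R 4.3.3, with an intensity trend and Benjamini-Hochberg adjustment over all tested genes. Intervals are 95% intervals of that fit. The signal over background limits dim genes, and 4 arrays per group limit the precision. The code was tested on simulated data.

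Genes named are the 10 in each direction with the smallest p, small RNAs by p under their lists (up to 6), up to 4 by p of each list described and a panel of acid targets; other members are shown for contrast or for a sequence, and were chosen after their values were seen. The members and lists were chosen with earlier results of these data known. Replicate numbers were checked for pairing. The deviations of same-numbered HFD arrays correlated at -0.14 to 0.45, and 2 of 4 correlated best with their own number. This did not establish a pairing, and 4 correlations are too few to decide, so the arrays were treated as unpaired. Alternatives were other filters, moderation, array weights, all probe sets, quantile normalization, a fit restricted to the compared groups, a replicate block, and the omission of single arrays.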

Additional observations from a re-analysis of the deposited data

Results flagged for a closer look

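Of 196 groups of 4 arrays examined, 10 held an array whose gap to its nearest neighbour was large for the range of the group; chance gives about 1 in 20. Among genes, Malat1 on propionate array 1 stood at 11.57, against 11.68 to 11.69 on the other propionate arrays, and Rdm1 on acetate array 4 at 6.19, against 5.86 to 5.91. Among list means on the propionate arrays, array 1 was high for translation factors (8.93, against 8.79 to 8.80) and for MHC class II genes (6.86, against 5.99 to 6.10), and array 4 was low for cytosolic ribosomal proteins (10.84, against 10.97 to 10.99) and for markers of the squamous epithelium of the anus (4.75, against 5.10 to 5.15). On the acetate arrays, array 2 was low for peroxisomal fatty acid oxidation (7.86, against 7.96 to 7.97) and for claudins and tight junctions (9.32, against 9.43 to 9.44), array 4 was low for histones (7.25, against 7.43 to 7.45), and array 1 was low for immunoglobulin segments (5.31, against 5.62 to 5.66).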

How the results depend on the processing

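For propionate against acetate on HFD, genes past the threshold numbered 0, but 11 with a mean log2 level of at least 6 and 1202 with array weights. There were 53 (as probe sets) with all probe sets, 29 with quantile normalization and 72 with the replicate number as a block. A pairing by that number was not established (2 of 4 arrays correlated best with their own number). Leaving out single arrays gave 0 to 147. At an unadjusted p under 0.05 the count was 3263 with array weights and 914 to 2388 without single arrays. On LFD it was 819 without the filter, 219 with the stricter filter and 243 to 1132 without single arrays, and 0 passed in any setting. For the difference between diets, 142 passed with array weights and 0 to 140 without single arrays; at an unadjusted p under 0.05 there were 2721 with array weights and 916 to 2341 without single arrays. The cause of these shifts was not tested. Of the genes past the threshold, snoRNAs numbered 8 of 11 with the stricter filter, 12 of 29 with quantile normalization, 23 of 72 with the block and 39 of 1202 with array weights. Signs turned for Pck1 (0.01 with array weights, 0.07 with quantile normalization, -0.08 to 0.07 without single arrays), Gcg (-0.25 to 0.02 without single arrays) and Muc2 (-0.01 to 0.04 without single arrays), and for none of the other genes named by the rule. Array signal near background limits the dim genes.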

Other observations

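Cell cycle, stress and tight junction genes were also read in propionate against acetate on HFD. DNA replication and mitosis genes (28 tested) had a median of -0.11 with 0 at an unadjusted p under 0.05 in either direction. Of the immediate early genes (19), Ier2 was higher (0.25, SE 0.0982) and Dusp1, a phosphatase that switches off stress kinases, was lower (-0.50, SE 0.168, adjusted p = 0.206 in limma) at that level. Among claudins and tight junction genes (16) the pore-forming Cldn2 stood at 8.09 to 8.35 under propionate and 8.40 to 8.59 under acetate (difference -0.32, SE 0.145), and the junction protein Cgn differed by 0.18 (SE 0.0801). No other member of that list was at an unadjusted p under 0.05. Among all genes 4.89% were higher and 8.28% lower at that level, so these members, picked by p, are no result about their lists. Of the xenobiotic enzymes (20), 0 were higher and 2 lower at an unadjusted p under 0.05, near the 8.28% of all genes that were lower. These were the glutathione transferase Gstm3 (-0.31, SE 0.0867, adjusted p = 0.131 in limma) and Gclm (-0.19, SE 0.0913). The unfolded protein response list (18) had a median of -0.05, which turned to 0.01 with quantile normalization; Xbp1, its transcription factor, differed by -0.24 (SE 0.102).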
